A study of Mus musculus with 2 samples.

Results

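The Onecut family of the mouse comprises Onecut1, Onecut2 and Onecut3, which are 3 of the 21853 protein-coding genes with a transcription start site (TSS) counted in the GENCODE vM21 annotation. The rule that picks them is their name and uses no measured value. Onecut proteins are transcription factors that bind DNA through one cut domain next to a divergent homeodomain, both of which read a short sequence with the core ATCGAT or ATCAAT. Onecut1, also called HNF6, is best known as a regulator of liver and pancreas development. In the embryonic spinal cord and hindbrain the factors are known from newly born motor neurons and interneurons, and they have roles in the retina as well.

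The assay was DNase-seq, which maps open chromatin: the enzyme DNase I cuts accessible DNA and the fragment ends are sequenced. The samples were neural tube, the precursor of brain and spinal cord, from healthy B6NCrl mouse embryos at 11.5 days, male and female pooled, with no treatment or engineered allele named. The labels gave 1 group with 2 biological replicates, each a separate biosample and library but both with the same donor label, and whether they came from separate litters is not stated. Bulk neural tube mixes progenitors, many kinds of neurons and non-neural cells, and a weak peak can come from few cells or from weak opening in many cells, which cannot be told apart.

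The authors called peaks, windows of 150 bp each with a score, and hotspots, broader regions with a −log10 q-value, separately in each library. Replicate 1 held 199653 peaks and replicate 2 held 154324, a ratio of 1.29, and the sequencing depth of both is unknown. The score has no stated meaning in the sources used here and served only to rank peaks within a library. The tissue label was checked against markers. All 10 neural tube markers looked at, such as Sox2, Pax6 and Elavl3, had a promoter peak in both libraries, whereas 0 of 5 liver markers had one in either. Among 5 pancreas markers the number was 2 and 3, which included Ptf1a, a gene of the dorsal neural tube as well, and among 5 blood markers it was 2 and 2. The share of all genes with a promoter peak was 68.5% in replicate 1 and 67.7% in replicate 2.

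The 3 genes lie on different chromosomes in surroundings of very different size. A gene's territory is the stretch of genome in which no TSS of another protein-coding gene is nearer than its own. Onecut1 (ENSMUSG00000043013.10) occupies chr9:74861921-74891781 on the plus strand of mm10, is 29.9 kb long and has a territory of 421 kb. Its upstream coding neighbour, Wdr72, starts 752 kb away and its downstream neighbour, Fam214a, 91.0 kb away. Onecut2 (ENSMUSG00000045991.19) occupies chr18:64340020-64400987, plus strand, spans 61.0 kb and has a territory of 113 kb between St8sia3 and Fech. Onecut3 (ENSMUSG00000045518.8) occupies chr10:80494835-80517276, plus strand, spans 22.4 kb and has a territory of 52.7 kb between Tcf3 and Atp8b3. The median territory over all genes was 46.4 kb, so Onecut3 lies close to it, while 6.28% of genes have a territory as long as that of Onecut1. Each gene has 1 TSS of a coding transcript.

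All 3 promoters were open in both libraries. A promoter peak is one that overlaps the 500 bp to either side of the TSS, and 68.5% of all genes in replicate 1 and 67.7% in replicate 2 had at least 1, so this by itself does not set the family apart. Onecut1 had 2 promoter peaks in each library, Onecut2 had 3 in each, and Onecut3 had 2 in replicate 1 and 1 in replicate 2. At least 2 promoter peaks were found at 37.9% and 36.0% of genes, and at least 3 at 14.9% and 14.0%.

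The strongest promoter peak of Onecut1 was centred 130 bp upstream of the TSS in replicate 1, with a score of 121, and 110 bp upstream in replicate 2, with a score of 101. Scores as high were held by 5.87% and 6.46% of the peaks of the respective library. The peak of replicate 1, at chr9:74861716-74861865, overlapped that of replicate 2 by 130 bp. Its sequence is shown because it is the only strongly open site at this promoter found in both libraries and because of its base composition, 75.3% G or C with 18 CpG dinucleotides. It is the plus strand of GRCm38.p6 (mm10), 5′ to 3′. Capitals mark 2 GC boxes, GGGCGG, and between them the palindrome that the factor NRF1 is known to bind. Both motifs were looked for after the sequence had been seen.
Onecut1 promoter peak: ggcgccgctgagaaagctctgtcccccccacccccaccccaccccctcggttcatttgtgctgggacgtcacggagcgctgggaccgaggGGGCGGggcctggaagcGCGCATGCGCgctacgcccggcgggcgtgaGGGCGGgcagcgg
On either strand GGGCGG occurred in 42.3% and 45.2% of promoter peaks of replicates 1 and 2, and the NRF1 palindrome in 0.757% and 0.912%. A match of letters is a description and says nothing of whether a factor is bound there. The second promoter peak of Onecut1 was not the same region in the libraries: it lay 530 bp downstream of the TSS in replicate 1, with a score of 86, and 290 bp downstream in replicate 2, with a score of 52, without overlap, although both fell within hotspots that the other library had.

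Onecut2 had the strongest promoter peak of the family. It was centred 29 bp upstream of the TSS in replicate 1 with a score of 139, which 1.36% of peaks reached, and 49 bp upstream in replicate 2 with a score of 116, which 3.59% reached. It was flanked on both sides by a weaker peak. The upstream one lay 429 and 449 bp before the TSS with scores of 103 and 67, and the downstream one 371 and 311 bp after it with scores of 71 and 47. Each of the 3 overlapped its counterpart in the other library.

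The promoter peak of Onecut3 had the same position in both libraries, chr10:80494796-80494945, centred 36 bp downstream of the TSS in the first exon. Its score was 103 in replicate 1, reached by 10.8% of peaks, and 63 in replicate 2, reached by 16.6%. A further peak 224 bp upstream, with a score of 40, was called in replicate 1 only, where 57.9% of peaks scored as high. The promoter of Onecut3 thus ranked below those of its paralogs in both libraries. The windows of 500 bp to either side of the 3 TSSs were alike in base composition, with 64.4%, 64.2% and 64.0% G or C for Onecut1, Onecut2 and Onecut3 against a median of 56.3% over genes. They held 81, 81 and 65 CpG dinucleotides against a median of 48.

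A distal peak has its centre over 1 kb away from all coding TSSs and belongs to the gene whose TSS is nearest. Onecut1 had 81 in replicate 1 and 44 in replicate 2 (mean 62.5 ± 26.2, SD, n = 2). Onecut2 had 39 and 29 (34.0 ± 7.07, SD, n = 2). Onecut3 had 17 and 13 (15.0 ± 2.83, SD, n = 2). The order Onecut1, Onecut2, Onecut3 was the same in each library, and at least 1 distal peak was found at 73.7% and 69.8% of all genes, with medians of 3 and 2. As many distal peaks as Onecut1 were held by 0.558% and 1.35% of genes, as many as Onecut2 by 3.54% and 3.47%, and as many as Onecut3 by 12.7% and 12.3%. With 1 group of 2 libraries there is no test of these differences, and they are given as a description.

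The order changed when the length of the territory was taken into account. Onecut2 had 34.6 and 25.7 distal peaks per 100 kb of territory in replicates 1 and 2 (30.2 ± 6.27, SD, n = 2) and Onecut3 had 32.2 and 24.7 (28.5 ± 5.36). Onecut1 had 19.2 and 10.4 (14.8 ± 6.21). The median over genes was 5.33 and 3.52. Onecut2 and Onecut3 differed by less than the spread between libraries, and with equal numbers of peaks taken from both lists their order turned, to 28.0 and 28.5. The values of Onecut1 lay below those of both paralogs in each library. A density as high was found at 2.17% and 3.89% of genes for Onecut2, at 2.62% and 4.19% for Onecut3 and at 8.46% and 18.4% for Onecut1.

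**Figure D1:**
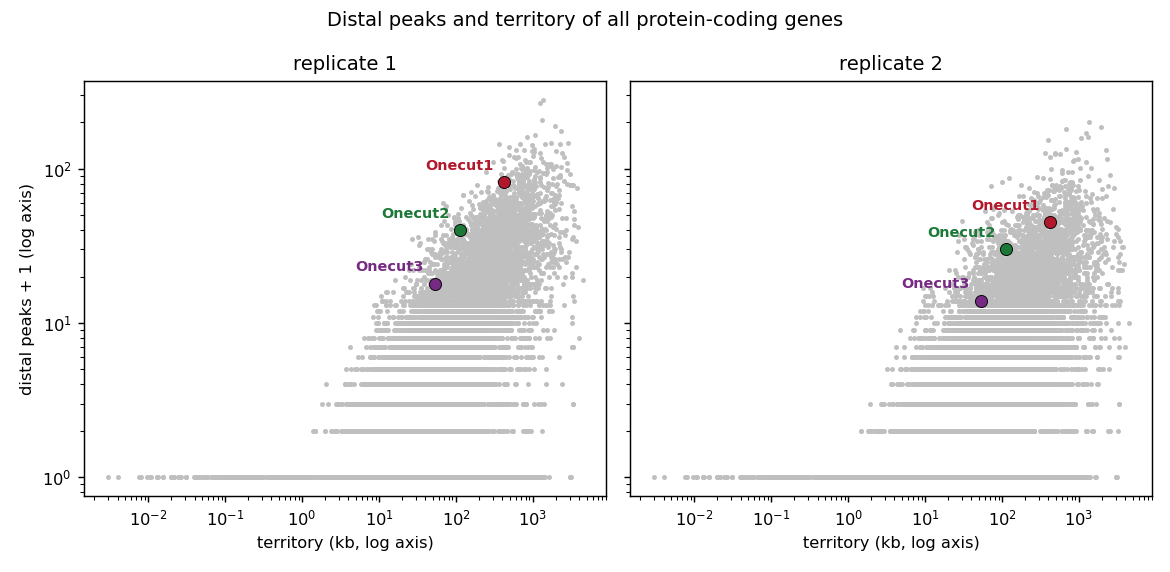
Each grey point is 1 protein-coding gene, with the length of its territory in kb on the horizontal log axis and its distal peaks plus 1 on the vertical log axis, for replicate 1 (left) and replicate 2 (right). The 3 coloured points are the Onecut genes, whose distal peaks, 81, 39 and 17 in replicate 1 and 44, 29 and 13 in replicate 2, follow the order of their territories, 421, 113 and 52.7 kb.

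The libraries differed most at Onecut1. The ratio of distal peaks in replicate 1 to those in replicate 2 was 1.84 for Onecut1, 1.34 for Onecut2 and 1.31 for Onecut3, against 1.35 over all distal peaks. Among the 3664 genes with at least 10 distal peaks in replicate 2, 12.4% had a ratio as high as that of Onecut1. A distal peak was counted as shared when it overlapped a peak of the other library by at least 1 bp, which 48.1% (replicate 1) and 66.4% (replicate 2) of all distal peaks did. At Onecut1 30 of 81 were shared in replicate 1 (37.0%, exact binomial 95% interval 26.6 to 48.5) and 30 of 44 in replicate 2 (68.2%, 52.4 to 81.4). At Onecut2 25 of 39 (64.1%, 47.2 to 78.8) and 24 of 29 (82.8%, 64.2 to 94.2) were shared. At Onecut3 9 of 17 (52.9%, 27.8 to 77.0) and 8 of 13 (61.5%, 31.6 to 86.1) were shared. The intervals treat peaks as independent draws, and cover counting error only. In replicate 1 those of Onecut1 and Onecut2 barely overlapped, and those of Onecut3 overlapped both. Overlapping peaks of both libraries merged into 87 distal sites at Onecut1, 42 at Onecut2 and 21 at Onecut3, of which 28, 23 and 8 were found in both libraries.

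The 3 genes differed in how far their distal peaks lay from the TSS. At Onecut1, 27, 19 and 35 distal peaks of replicate 1 lay 1 to 10 kb, 10 to 50 kb and over 50 kb from the TSS, and 21, 12 and 11 of replicate 2. At Onecut2 the counts were 31, 7 and 1 in replicate 1 and 26, 2 and 1 in replicate 2. At Onecut3 they were 12, 5 and 0 in replicate 1 and 7, 6 and 0 in replicate 2, in a territory that ends before 50 kb on both sides. The territory of Onecut2 ends before 50 kb on the upstream side. Over all genes 25.3% and 26.7% of distal peaks lay within 10 kb. The shares were 79.5% and 89.7% at Onecut2, 70.6% and 53.8% at Onecut3 and 33.3% and 47.7% at Onecut1. The excess of replicate 1 at Onecut1 lay mainly far away, since over 50 kb it had 35 peaks to 11, of which 8 and 7 were shared. Within 10 kb it had 27 to 21, of which 14 and 16 were shared. The far peaks ranked low, with a median score beyond 100 kb of 32.0 in replicate 1 against 51.0 for those nearer, and of 19.0 against 29.5 in replicate 2. Far peaks ranked lower over all genes as well. There a score as high as that of the median peak over 50 kb was held by 61.4% and 63.2% of the list. Within 10 kb the values were 47.9% and 49.2%.

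**Figure D2:**
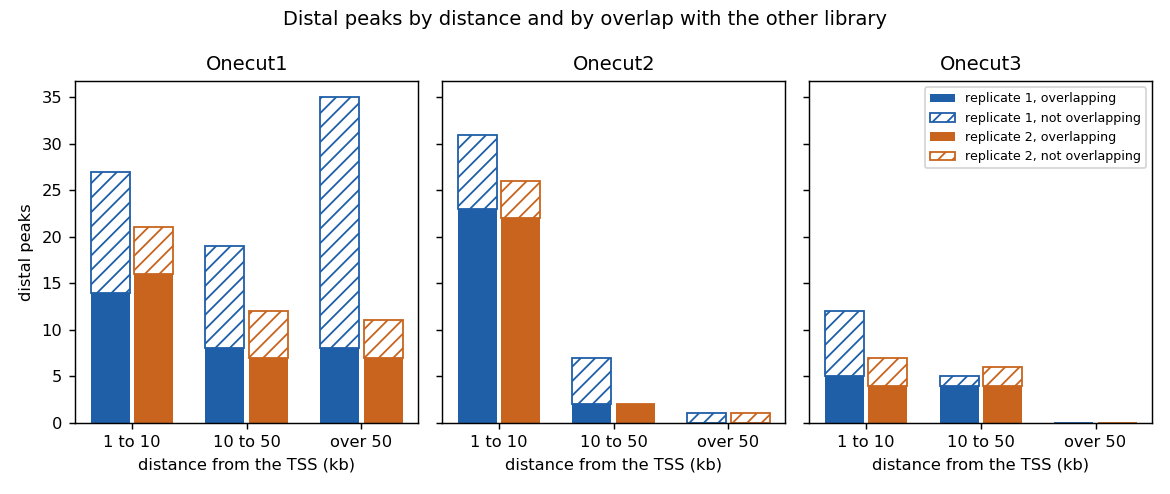
The bars count distal peaks (vertical axis) of Onecut1, Onecut2 and Onecut3 in 3 ranges of distance from the TSS, in blue for replicate 1 and orange for replicate 2, with the solid part overlapping a peak of the other library and the hatched part not. The tallest hatched part belongs to Onecut1 over 50 kb in replicate 1, where 8 of 35 peaks overlapped one of replicate 2.

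Side also differed. Of the distal peaks of Onecut1, 81.5% in replicate 1 and 68.2% in replicate 2 lay upstream of its TSS, towards Wdr72. The corresponding shares were 38.5% and 48.3% at Onecut2 and 47.1% and 30.8% at Onecut3. Over all genes 56.1% and 56.4% lay downstream of the nearest TSS. The territories themselves are uneven. Those of Onecut1, chr9:74486138-74907441, and Onecut3, chr10:80464241-80516961, lie mostly upstream of the TSS. That of Onecut2, chr18:64301837-64414534, lies mostly downstream. The shares were not adjusted for this. Within the gene body lay 14 and 13 distal peaks of Onecut1, 24 and 14 of Onecut2 and 9 and 9 of Onecut3. At Onecut1, 36 of 81 and 29 of 44 distal peaks fell inside noncoding genes. These were chiefly Gm20649, a long noncoding RNA gene that overlaps the locus, and Gm16551. The counts include the 14 and 13 distal peaks in the Onecut1 gene body, which all lie inside Gm20649 as well. The share over all distal peaks was not computed. If noncoding genes compete for the nearest TSS, Onecut1 keeps 17 and 15 distal peaks, Onecut2 26 and 17 and Onecut3 10 and 4, so Onecut2 then has the most.

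**Figure D3:**
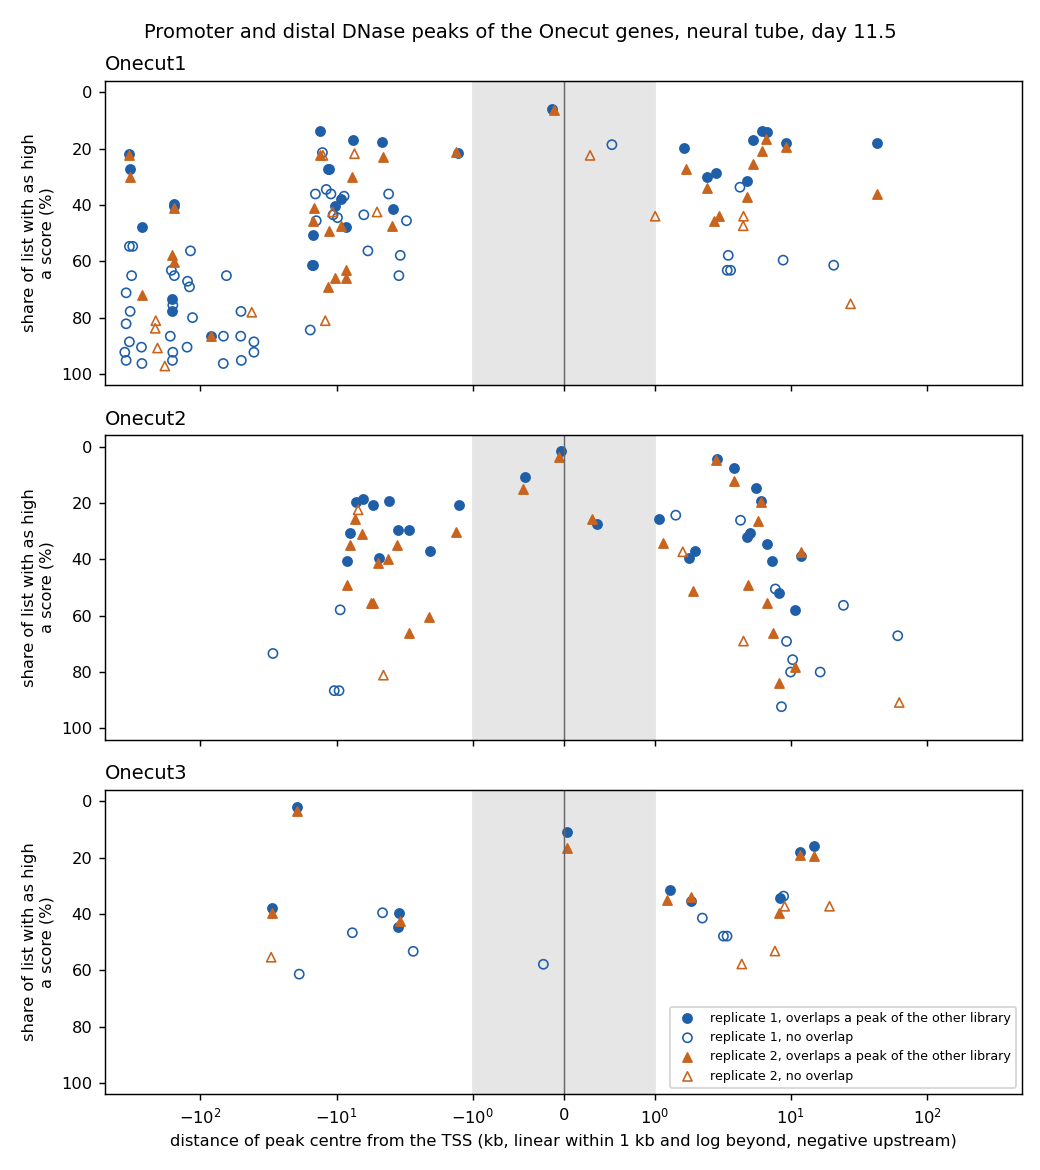
Each symbol is 1 promoter or distal peak, placed by the distance of its centre from the TSS in kb (horizontal axis, linear within 1 kb and logarithmic beyond, upstream negative) and by the share of its library's peaks with as high a score (vertical axis, strongest at the top). Blue circles are replicate 1, orange triangles replicate 2, filled symbols overlap a peak of the other library, and the grey band marks 1 kb to either side of the TSS. Distal peaks of Onecut1 reach 358 kb upstream, with the far ones mostly open symbols low in the panel, whereas those of Onecut2 crowd within about 10 kb.

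Distal peaks less than 10 kb apart were joined into runs to describe the layout. Onecut1 had 13 runs, 8 with peaks of both libraries, 3 of replicate 1 only and 2 of replicate 2 only. The main run reached from 15.6 kb upstream to 9.25 kb downstream and held 41 and 30 peaks, 21 and 22 of them shared. Of the far runs, one from 166 to 155 kb upstream held 10 peaks of replicate 1 and 3 of replicate 2, and one from 331 to 313 kb upstream held 7 and 2. The farthest shared site of the family lay in the latter, 331 kb upstream at chr9:74530456-74530605, with scores of 80 and 52 that 21.9% and 22.4% of peaks reached. Onecut2 had 3 runs, and 37 of its 39 and 28 of its 29 peaks belonged to one from 10.4 kb upstream to 24.3 kb downstream. Onecut3 had 3 runs, each with peaks of both libraries.

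The best shared distal peaks of Onecut1 lay in an intron and just upstream. Those ranked highest over both libraries lay 6.65 kb (scores 95 and 63) and 6.11 kb (96 and 55) downstream of the TSS, both intronic. The third lay 13.3 kb upstream (96 and 52), within 500 bp of annotated starts of the noncoding genes Gm16551 and Gm20649, and the next ones lay 9.21 kb downstream (87 and 57) and 4.61 kb upstream (88 and 51). No distal peak of Onecut1 ranked in the top 10% of either library, and the best were reached by 13.6% and 16.6% of peaks. The first and the third are shown from the mm10 plus strand, at chr9:74868496-74868645 and chr9:74848556-74848705, since they contrast an intronic site with one at a noncoding start. None of the 10 motifs searched occurred in either, and they hold 3 and 11 CpG dinucleotides.
Onecut1 intronic peak: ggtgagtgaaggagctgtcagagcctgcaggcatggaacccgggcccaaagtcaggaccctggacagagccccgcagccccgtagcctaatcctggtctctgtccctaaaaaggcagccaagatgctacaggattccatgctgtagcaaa
Onecut1 upstream peak: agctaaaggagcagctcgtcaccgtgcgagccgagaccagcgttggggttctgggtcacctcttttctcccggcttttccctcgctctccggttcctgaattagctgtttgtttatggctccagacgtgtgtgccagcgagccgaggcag
The strongest unshared peak of replicate 1 at Onecut1 lay 12.7 kb upstream with a score of 81, and that of replicate 2 7.39 kb upstream with a score of 53. Both fell within hotspots of the other library, so the region was open there too.

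Onecut3 had the strongest distal peak of the family. It lay 19.4 kb upstream, at the same position chr10:80475356-80475505 in both libraries, with scores of 136 and 117 that 2.18% and 3.39% of peaks reached. In both libraries it ranked above the promoter peak of Onecut3 itself, whose scores were 103 and 63. No coding or noncoding GENCODE gene starts within 500 bp, the nearest being the small nuclear RNA gene Gm25044 at 0.920 kb. The RefSeq annotation of the same assembly, however, places the start of a predicted long noncoding RNA gene, Gm40716, inside the peak at position 80475380 on the minus strand, so by that annotation the site is a promoter. It held 77.3% G or C and 22 CpG dinucleotides, a number reached by 0.188% and 0.316% of distal peaks and by 6.92% and 8.16% of peaks within 1 kb of a coding TSS. The sequence of the plus strand is shown with capitals on a GC box, read on the minus strand, and on an inverted repeat of the form known for Rfx factors. Both were looked for after the sequence had been seen.
Onecut3 upstream peak: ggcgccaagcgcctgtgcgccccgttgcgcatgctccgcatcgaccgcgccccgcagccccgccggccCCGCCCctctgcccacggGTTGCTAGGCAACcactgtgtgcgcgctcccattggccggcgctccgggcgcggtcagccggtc
The repeat occurred in 0.142% and 0.141% of all distal peaks. The next shared distal peaks of Onecut3 lay in introns 14.7 kb (scores 91 and 57) and 11.6 kb (87 and 58) downstream, then in an exon at 1.30 kb (65 and 36) and an intron at 1.84 kb (60 and 37).

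At Onecut2 the best shared distal peak was stronger than any at Onecut1. It lay 2.85 kb downstream of the TSS in an intron, at chr18:64342796-64342945, with scores of 127 and 110 that 4.50% and 4.80% of peaks reached. The next lay 3.83 kb (114 and 75), 6.07 kb (85 and 57) and 5.59 kb (94 and 46) downstream, all intronic. The last of the 5 lay 7.19 kb upstream (84 and 47) inside St8sia3os, an antisense gene that starts 0.875 kb away. The farthest shared peak of Onecut2 was only 11.8 kb from the TSS, with scores of 56 and 34. The gene is 61.0 kb long, and beyond 11.8 kb no distal peak was found in both libraries.

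The distal peaks of Onecut3, 17 and 13 in number, ranked higher as a group than distal peaks over all genes. Among the higher-scoring 50% of the list were 88.2% and 76.9% of them, against 43.2% and 41.9% of all distal peaks. For Onecut2 the shares were 64.1% and 58.6%. For Onecut1 they were 44.4% and 65.9%, the former near the background.

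Hotspots were broad at the promoters of Onecut1 and Onecut2 and narrow at that of Onecut3. A hotspot touched the promoter window of all 3 genes in both libraries, as at 68.9% and 68.1% of all genes. The hotspot over the Onecut1 TSS was 4150 bp wide in replicate 1 and 2451 bp in replicate 2, and that over the Onecut2 TSS 7366 and 2678 bp. Promoter hotspots as wide were found at 1.85% and 3.16% of genes for Onecut1 and at 0.357% and 2.16% for Onecut2. At Onecut3 the widths were 553 and 459 bp, below the medians of 1568 and 1166 bp over genes with a promoter hotspot. All of these hotspots carried a −log10 q of 100, the highest value in the files, and Onecut3 had a further one of 103 bp with a value of 1.51 in replicate 1. A promoter hotspot of at least 2 kb was found at 19.7% and 7.65% of genes.

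At Onecut2 in replicate 1 the promoter hotspot was 1 of 4 that followed each other with gaps of at most 48 bp, and together they spanned 17.1 kb, from 8.83 kb upstream to 8.29 kb downstream of the TSS. Replicate 2 had the same stretch in many pieces: 7 of its hotspots covered 92.0% of the 7366 bp hotspot, 9 covered 68.2% of the 6330 bp one upstream, and 3 covered 34.6% of the 1870 bp one at the downstream end. An annotated start of the noncoding gene St8sia3os lies inside the 6330 bp hotspot. At Onecut1 the widest hotspot of replicate 1 was not at the promoter. It spanned 8103 bp, from 13.82 to 5.72 kb upstream, held 15 peaks and was exceeded or matched in width by 0.0350% of that library's hotspots. Annotated starts of the noncoding genes Gm16551 and Gm28182 lie inside this hotspot. In replicate 2 10 hotspots covered 54.9% of it and 12 peaks lay there. Hotspots covered 7.16% and 3.60% of the Onecut1 territory, 18.1% and 11.8% of that of Onecut2 and 12.8% and 7.77% of that of Onecut3, against medians of 3.91% and 2.53% over genes.

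**Figure D4:**
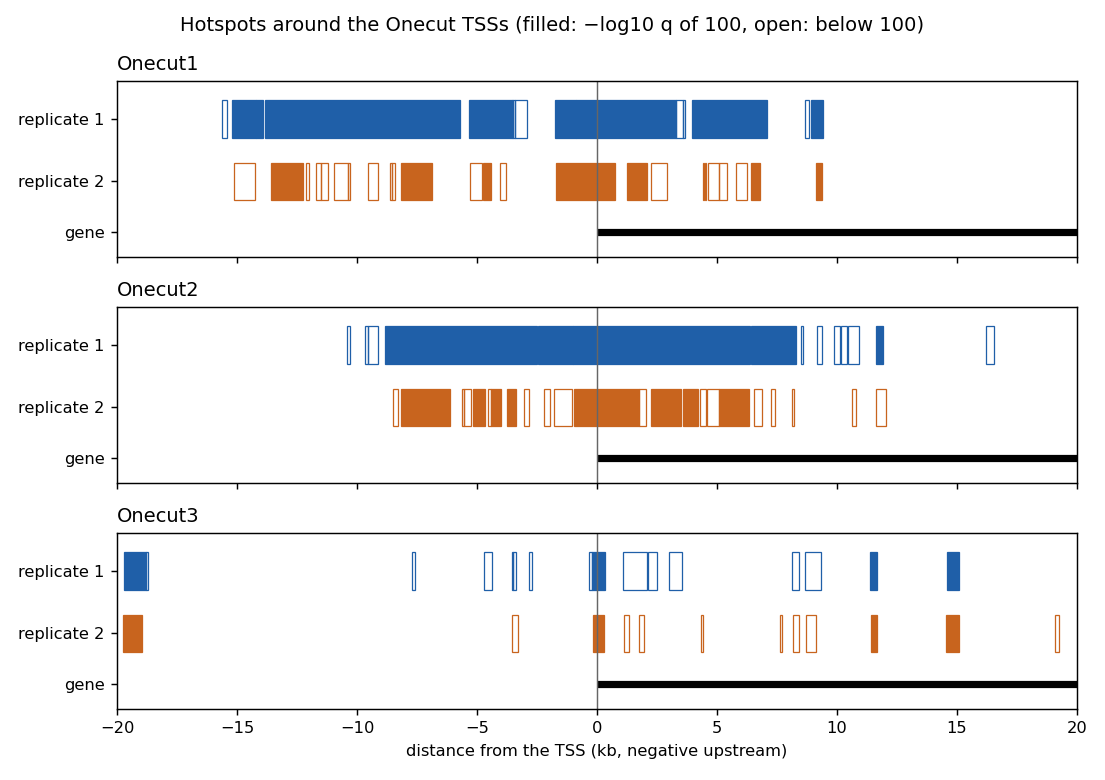
Boxes are hotspots within 20 kb of each Onecut TSS, by distance from the TSS in kb (horizontal axis, upstream negative), in blue for replicate 1 and orange for replicate 2, filled where the −log10 q is 100 and open where it is lower. The black bar is the gene from its TSS on. A nearly unbroken filled stretch of 17.1 kb surrounds the Onecut2 TSS in replicate 1 and also covers an annotated start of the noncoding gene St8sia3os. The stretch is broken up in replicate 2. The promoter hotspots of Onecut3 are 553 and 459 bp wide.

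The letters of the Onecut site itself were looked for in the peaks of the genes that encode the factors. ATCGAT, which reads the same on both strands, was in 3 of 17 distal peaks of Onecut3 in replicate 1 and 2 of 13 in replicate 2 (17.6% and 15.4%), against 0.629% and 0.542% of all distal peaks. These peaks share sites: there are only 2 distinct ones, 3.49 kb upstream in intergenic sequence and 1.88 kb downstream in an intron, and both lay in peaks of both libraries, with scores of 55 and 30 and of 60 and 37. They are shown with 10 bases to either side, plus strand, ATCGAT in capitals, from chr10:80491328-80491353 and chr10:80496702-80496727.
Onecut3 at 3.49 kb upstream: gccgtcggggATCGATcgggcacaac
Onecut3 at 1.88 kb downstream: tctgccgacgATCGATccgctagtcc
Onecut1 had the letters in 1 of 81 and 0 of 44 distal peaks and Onecut2 in 1 of 39 and 0 of 29. Both of these genes had them instead just inside the first exon, in a promoter peak of 1 library: 347 bp downstream of the Onecut1 TSS, in a peak of replicate 2 in the 5′ untranslated region, and 385 bp downstream of the Onecut2 TSS, in a peak of replicate 1. The Onecut1 site, shown for comparison at chr9:74862255-74862280, has other flanking bases.
Onecut1 at 347 bp downstream: gcccggccacATCGATgttgcagccc
ATCGAT occurs within 500 bp of a TSS in 5.51% of genes, and Onecut3 is not among them.

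The variant core ATCAAT, searched together with its reverse ATTGAT, was at 12 distinct positions in the distal peaks of Onecut1, 6 in those of Onecut2 and 0 in those of Onecut3. By peaks these were 11 of 81 and 3 of 44 at Onecut1 (13.6% and 6.82%), 4 of 39 and 2 of 29 at Onecut2 (10.3% and 6.90%) and 0 of 17 and 0 of 13 at Onecut3, against 6.15% and 4.33% of all distal peaks. Only 2 of the 12 positions at Onecut1 and 1 of the 6 at Onecut2 lay in peaks of both libraries. Their counts are small, and the exact binomial 95% intervals, 6.98 to 23.0% and 1.43 to 18.7% at Onecut1, include or come close to the share in all distal peaks. The E-box CAGCTG, a site of neural basic helix-loop-helix factors, was in 8 of 81 and 6 of 44 distal peaks of Onecut1, 6 of 39 and 4 of 29 of Onecut2 and 1 of 17 and 2 of 13 of Onecut3, against 15.7% and 17.1% of all. The homeodomain core TAATTA was rare, in 1 of 81 and 1 of 44 at Onecut1 and in none at Onecut2 or Onecut3, against 3.84% and 2.53% of all distal peaks. Neither TAATTA nor ATCAAT was adjusted for the higher G or C content of the Onecut3 peaks. The Sox core ACAAAG was in 11 of 81 and 6 of 44 at Onecut1, 7 of 39 and 0 of 29 at Onecut2 and 1 of 17 and 0 of 13 at Onecut3, against 16.1% and 13.9% of all. For the other motifs, the E-box CAGATG, the Rfx core GTTGCC, the nuclear receptor core AGGTCA, the octamer and the Ebf palindrome, the highest share was that of AGGTCA at Onecut3 in replicate 2, 3 of 13 (23.1%, exact binomial 95% interval 5.04 to 53.8, against 10.2% of all). In replicate 1 the same letters were in 1 of 17 (5.88%, against 10.4% of all).

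Genes of related function gave a background for these values. Other genes that encode cut domains, Cux1, Cux2 and Satb1, had a promoter peak in both libraries. Cux2, a marker of upper cortical layers later in development, had 39 and 30 distal peaks, Cux1 had 33 and 20, and Satb1, a chromatin organiser, had 30 and 9. Per 100 kb Cux2 had 20.7 and 15.9, above Onecut1 and below the other Onecut genes in the same library. Cux1 had 10.1 and 6.12 and Satb1 4.15 and 1.25, below each Onecut gene. A promoter peak was found at 12 and 11 of 12 genes linked to Onecut factors in neurons, the exception being Pou2f2, a POU factor of spinal interneurons, with 2 and 0. Over all genes 68.5% and 67.7% had a promoter peak. The median distal peaks of the list were 42.0 and 31.0, against 3 and 2 over all genes. Per 100 kb of territory the contrast was smaller, with medians of 19.5 and 15.4 against 5.33 and 3.52. The genes with most distal peaks were Lhx5, a factor of dorsal and ventral interneurons, with 66 and 78, and Isl1, a motor neuron factor, with 78 and 55. Nr4a2, a factor of dopaminergic neurons, followed with 60 and 33.

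Of the 10 genes linked to Onecut factors in liver and pancreas, 5 and 4 had a promoter peak in replicates 1 and 2, against 68.5% and 67.7% of all genes. The medians were 5.5 and 6.0 distal peaks, against 3 and 2 over all genes. Per 100 kb of territory they were 7.67 and 6.98, against 5.33 and 3.52. Ttr, G6pc, Pck1, Alb and Afp, genes of hepatocyte products and of glucose metabolism, had no promoter peak in either library. Hnf4a had 1 promoter peak in replicate 1 and 0 in replicate 2. Foxa2, which also marks the floor plate of the neural tube, had the most distal peaks of this list, 91 and 48, followed by Pdx1 with 13 and 13 and Pck1 with 10 and 16. Both lists were assembled from knowledge of the factors, with earlier results of these data already known. They do not say which genes the Onecut proteins bind in this tissue.

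**Figure D5:**
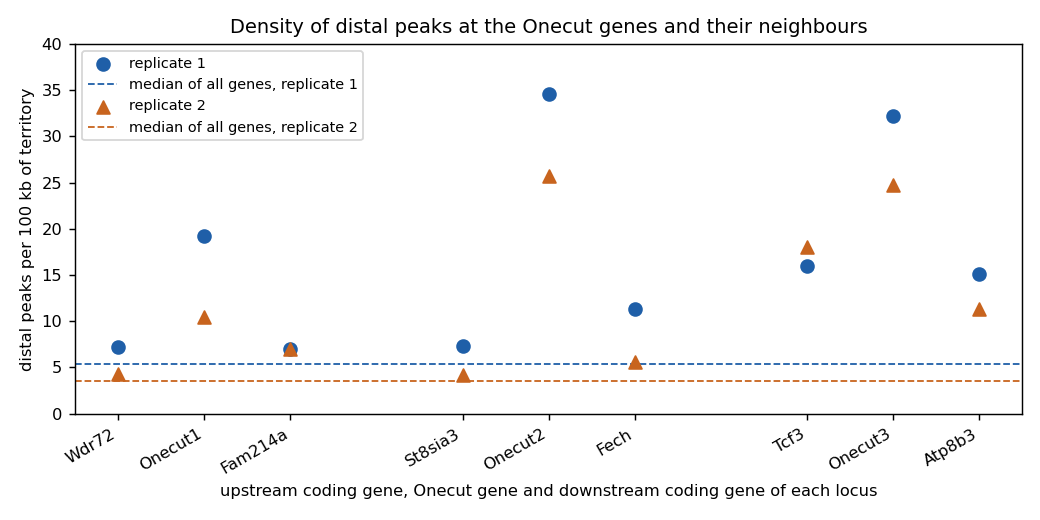
Points give distal peaks per 100 kb of territory (vertical axis) for each Onecut gene between its upstream and downstream coding neighbour, as blue circles for replicate 1 and orange triangles for replicate 2, and dashed lines give the medians over all genes, 5.33 and 3.52. In each locus and library the Onecut gene lies above both neighbours.

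The density of distal peaks was lower at the neighbouring genes. Around Onecut1, with 19.2 and 10.4 peaks per 100 kb, Wdr72 had 7.17 and 4.26 and Fam214a 7.04 and 7.04. Around Onecut2, with 34.6 and 25.7, St8sia3, a sialyltransferase gene, had 7.35 and 4.20 and Fech, which encodes the last enzyme of heme synthesis, 11.3 and 5.63. Around Onecut3, with 32.2 and 24.7, Tcf3, which encodes the E proteins that pair with neural basic helix-loop-helix factors, had 16.0 and 18 and Atp8b3 15.1 and 11.3. St8sia3 had a promoter peak in replicate 1 and none in replicate 2.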

How the data were processed

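DNase-seq peaks and hotspots of 2 libraries of 1 group were used. Per the deposited files, the authors called both separately in each library on mm10 and gave each peak a score, a whole number of at most 150, and each hotspot a −log10 q-value, which ran from 1.30 upward to 100. Neither aligner nor caller nor threshold is named: they were not given in the sources used here. No read counts were at hand, so depth is unknown, and intervals cover counting error only. Repeated rows, 45 in replicate 1 and 22 in replicate 2, were removed.

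TSSs were the 54361 starts of coding transcripts of 21853 genes in GENCODE vM21. Motif letters and base composition were read from GRCm38.p6 on both strands. The RefSeq promoter table held 1 of the 3 genes. Overlaps were computed with Python 3.11.15, pandas 2.3.3 and SciPy 1.17.1 by a procedure tested on simulated intervals. Genes and lists were chosen with earlier results of these data known. Named are all promoter peaks, the 5 best shared distal peaks, the farthest shared peak and the best unshared ones, the 3 genes with most distal peaks in each list, those without a promoter peak, and flanking genes. The closing part gives other definitions of promoters, distal peaks and sharing. One gene that this rule names is not reported here. No sequence is printed for Onecut2.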

Additional observations from a re-analysis of the deposited data

How the results depend on the processing

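Values are means of both libraries. Of 72 alternatives over promoter peaks, distal peaks, density and sharing of the 3 genes, 56 stayed within their limit and 16 moved further. The limit was 1.5 times for counts of peaks and 1 SD between libraries for densities and shares. Leaving out 1 of the 2 libraries always moves a mean density by less than this SD. Those density alternatives could therefore only count as within their limit. With promoters cut to 200 bp, promoter peaks fell to 1.0 for both Onecut1 and Onecut2. With starts of all transcripts of coding genes, an alternative added after seeing the data, Onecut1 had 4.5. Distal peaks of Onecut1 were 39.5 when counted within 50 kb of the TSS, 16.0 when noncoding genes competed and 32.0 in the higher-scoring 50% of peaks. Those of Onecut2 were 21.5 when noncoding genes competed, 21.0 in the higher-scoring 50%, 20 with hotspots in place of peaks and 19.5 beyond 5 kb, and those of Onecut3 were 7.0 when noncoding genes competed and 8.5 beyond 5 kb. Beyond 5 kb the density was 17.3 per 100 kb at Onecut2 and 16.1 at Onecut3. The shared percentage of Onecut2 was 48.1 when 75 bp had to overlap, and that of Onecut3 was 67.9 against hotspots. With each library alone, promoter peaks were 2.0 and 2.0, 3.0 and 3.0, and 1.0 and 2.0 for Onecut1, Onecut2 and Onecut3. Distal peaks were 44.0 and 81.0, 29.0 and 39.0, and 13.0 and 17.0, and densities 10.4 and 19.2, 25.7 and 34.6, and 24.7 and 32.2. Onecut1 had the most distal peaks under each alternative except the one with noncoding genes. Promoters cut to 200 bp, the higher-scoring 50%, the 5 kb cutoff and the overlap of 75 bp can by definition only lower a value. The cause of the other shifts was not tested.

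No paired analysis was possible because there is only 1 group. Depth is unknown, so an absent peak does not show closed chromatin, and 1 pair of libraries with the same donor label gives an imprecise SD.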

Other observations

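Genes whose chromatin looked most like that of each Onecut gene were found by the distance between their log2 distal peaks plus 1 in both libraries and their log2 territory. For Onecut1 these were Nkx6-1, a factor of ventral neural progenitors, with 85 and 47 distal peaks in a territory of 459 kb, then Pmfbp1 with 81 and 50 and Gm10260 with 78 and 49. Pmfbp1 and Gm10260 had no promoter peak in either library, whereas Nkx6-1 had 2 in each, as Onecut1 did. For Onecut2 they were Irf2bpl with 37 and 31, Foxf2 with 42 and 27 and Fignl1 with 41 and 33. For Onecut3 they were Dtx4, Rbm5 and 1700067P10Rik, each with 16 and 13. Nothing about shared function follows from this likeness of counts.

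Onecut1 has a second annotated start, of a transcript without coding sequence, inside the gene. When the starts of all transcripts of all coding genes were used, this one included, Onecut1 had 4 promoter peaks in replicate 1 and 5 in replicate 2, and 66 and 38 distal peaks.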
